A study of Rattus norvegicus with 4 samples.

Results

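The transcripts described here encode the core machinery of macroautophagy and its cargo receptors, a set of 39 named genes that were looked up by symbol in a rat gene count table. Of the 39 symbols, 38 have a row among the 32883 genes of the table, and Atg4a was not analysed here because no row carries that symbol. Counts came from HSC-T6, a rat cell line made from hepatic stellate cells by immortalisation. Such cells store retinoids and lipid in the healthy liver and lay down matrix in the injured liver. The study has 2 libraries of cells treated with ginsenoside RK1 (GRK1 in the labels), a saponin of heat-processed ginseng, and 2 libraries of untreated cells, so n = 2 in each group for every value below. The labels state neither dose nor duration nor vehicle for the treatment. The series title is about glycolysis and ferroptosis, and macroautophagy is not named in it.

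Macroautophagy encloses cytoplasm in a double membrane and delivers it to lysosomes. The ULK1 kinase complex starts the process, the class III PI3-kinase complex marks the forming membrane with the lipid PI3P, and ATG2 proteins supply the membrane with lipid. A ubiquitin-like conjugation system then attaches the small ATG8 proteins to lipid, and cargo receptors bind ATG8 proteins on one side and ubiquitinated cargo on the other. In stellate cells autophagy is known for breaking down lipid droplets during activation, and autophagy of ferritin, by releasing iron, is known to favour ferroptosis.

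Library totals were 18008586 and 18125005 counts with RK1 and 20430930 and 18175053 counts in untreated cells, and 3 counts correspond to between 0.147 and 0.167 CPM, which are counts scaled to the library total. Of the 32883 genes, 12316 were abundant enough to be tested, and all 38 members with a row were among them. Of 7 stellate markers, the collagens Col1a1 and Col3a1 and the filament Vim were abundant, the receptor Pdgfrb and the filament Des were lower, and Lrat, a retinol esterifying enzyme, had 0 counts in all 4 libraries. Acta2, smooth muscle actin, had 16 and 6 counts with RK1, against 73 and 56 counts untreated. The markers summed to 11930 and 11840 CPM with RK1 and to 18740 and 17690 CPM in untreated cells, and Col1a1 and Col3a1 made up most of that sum. Of the 6 tested, 3 fell with RK1 (50%, against 10.5% of all tested genes). They were Acta2 (log2 fold change -2.44, adjusted p = 0.0047), Col3a1 (-0.88, adjusted p = 1.9e-05) and Col1a1 (-0.59, adjusted p = 1.0e-04). Pdgfrb (-0.31), Vim (-0.08) and Des (0.37) were not called. The part of these marker changes in the results below was not tested. Of 16 markers of hepatocytes, macrophages, endothelial cells and cholangiocytes, 6 had 0 counts in every library, among them Ptprc, Adgre1, Kdr and Ttr. Only Tf and Cd68 had more than 5 counts in a library, and neither was called. Tf, a hepatocyte marker, was well above that, with 893 and 887 counts with RK1 and 1073 and 946 counts untreated. Cd68, a macrophage marker, had 30 and 24 counts with RK1 and 21 and 25 counts untreated. The labels do not state separate cultures, so each p-value covers the spread among these libraries alone, which may be technical.

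With RK1, 10 of the 38 autophagy transcripts rose and 0 fell. The largest rise was that of the cargo receptor Sqstm1, followed by Gabarapl2 of the ATG8 family, Uvrag, a regulator of the PI3-kinase complex, and Map1lc3b, also of the ATG8 family. The rises were small, between 1.15-fold and 1.44-fold. A transcript was called when edgeR's quasi-likelihood test gave a Benjamini-Hochberg adjusted p under 0.05 over all tested genes. Across all 12316 genes 22.0% were called, 11.5% as higher and 10.5% as lower, against 26.3% of the autophagy transcripts. The total share is thus near that of all genes, and the members called were all in 1 direction. No member fell at an unadjusted p under 0.05 either, and 0 fell by DESeq2 and by limma-voom, which called 6 and 10 higher. The median log2 fold change of the 38 transcripts was 0.13, against 0.0011 over all tested genes. Their CPM summed to 3859 and 3819 with RK1, against 3397 and 3384.5 in untreated cells. Both RK1 libraries lay above both untreated libraries for 24 of the 38 transcripts, where 32.1% of all tested genes did so. Both lay below for 2 transcripts, Atg9a and Tax1bp1, where 30.9% of all tested genes did so. In bulk RNA, a change in the share of cells that express a gene and a change in the RNA of each cell cannot be told apart.

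**Figure D1:**
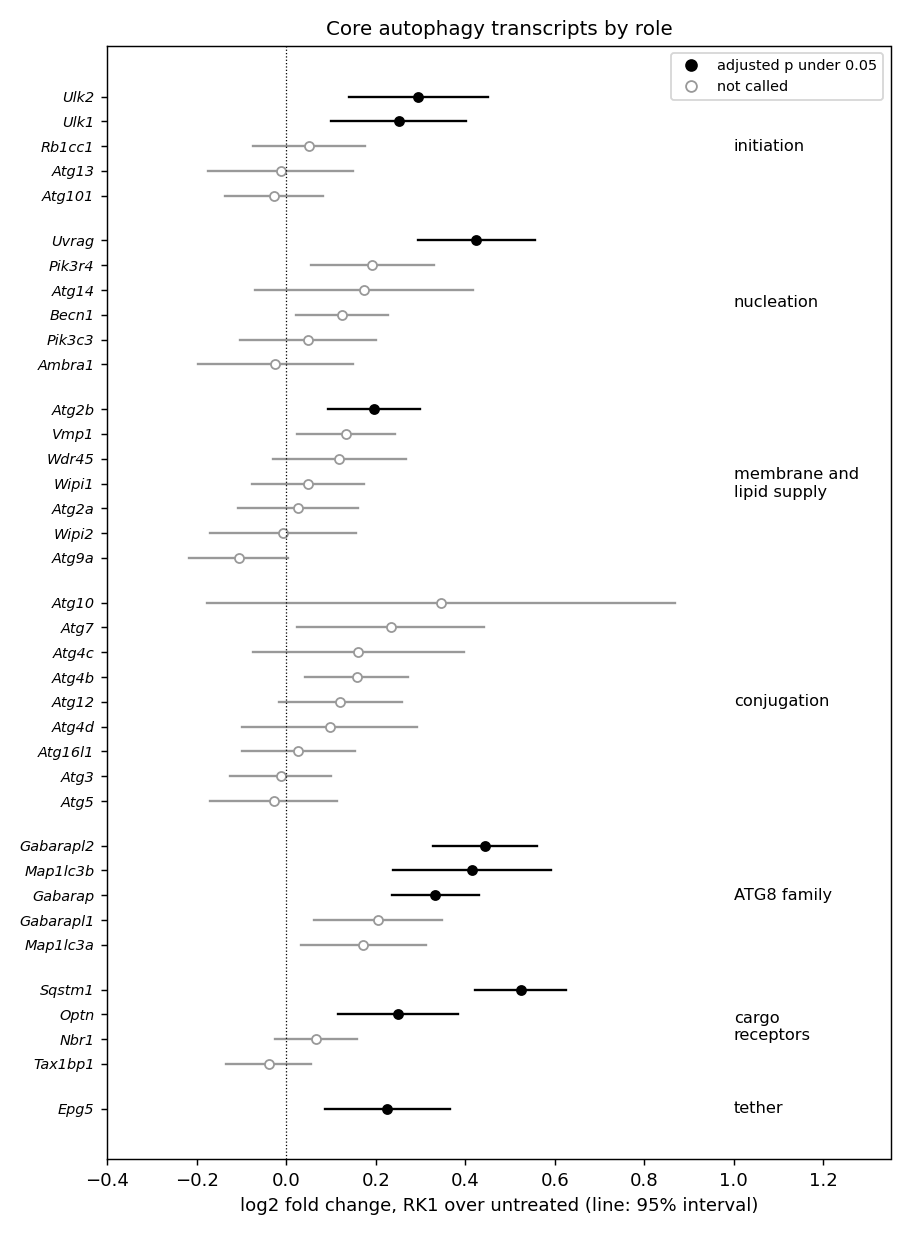
Log2 fold change of each autophagy transcript, RK1 over untreated (x axis), by role (blocks), with Calcoco1 left out because its interval runs off the scale; points are estimates from 2 libraries per group, lines are 95% intervals, and filled black points have an adjusted p under 0.05. All 10 filled points lie right of 0, and the conjugation block holds none.

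In the ULK1 complex the kinase genes rose and the genes of the other subunits were not called. The 2 of 5 called (40%) stand beside 22.0% of all tested genes called and 11.5% called higher. Ulk1, the kinase that starts autophagosome formation, had 40.7 and 37.4 CPM in RK1 libraries, against 33.0 and 32.7 CPM in untreated libraries (log2 fold change 0.25 ± 0.06 SE, adjusted p = 0.030). Ulk2, its paralog, had 42.1 and 45.8 CPM in RK1 libraries, against 34.6 and 37.1 CPM in untreated libraries (0.30 ± 0.07, adjusted p = 0.019). For both kinases the groups did not overlap, and each RK1 library was above each untreated one. Rb1cc1, which encodes the FIP200 scaffold, had a log2 fold change of 0.05 (95% interval -0.07 to 0.18). The regulatory subunits Atg13 (-0.01, interval -0.17 to 0.15) and Atg101 (-0.03, interval -0.14 to 0.08) were close to 0 as well. Whether the kinases differ from the scaffold subunits in their response was not tested. Genes were compared per kilobase of exon, which allows for length only as far as the deposited exon lengths hold in these cells. On that scale the Ulk2 to Ulk1 ratio was 0.897 and 1.06 in RK1 libraries and 0.910 and 0.985 in untreated libraries. The kinase transcripts were thus at like levels and the ratios overlapped. Neither kinase call is firm. Ulk1 was not called without untreated replicate 1 (adjusted p = 0.10), untreated replicate 2 (0.155) or RK1 replicate 1 (0.111), and Ulk2 not without untreated replicate 1 (0.107) or RK1 replicate 2 (0.0628). DESeq2 called neither (adjusted p = 0.184 for Ulk1 and 0.0783 for Ulk2).

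Of 6 transcripts of the PI3-kinase complex and its regulators, Uvrag alone was called. That is 16.7%, within the range of the 22.0% of all tested genes called and the 11.5% called higher. Uvrag, which replaces Atg14 in the form of the complex that acts in endosome and autophagosome maturation, had 79.8 and 85.5 CPM in RK1 libraries, against 59.9 and 63.4 CPM in untreated libraries. Each RK1 library was well above each untreated one (1.34-fold, log2 fold change 0.43 ± 0.06 SE, adjusted p = 0.0023). Atg14, which directs the complex to the site of initiation, had 14.0 and 14.9 CPM with RK1, against 12.1 and 13.6 CPM untreated, and was not called (0.17 ± 0.10, adjusted p = 0.28). Within a library the per-kilobase ratio of Uvrag to Atg14 was 5.95 and 5.97 with RK1 and 5.16 and 4.86 in untreated cells. Becn1, the Beclin 1 subunit, stood at 310 and 295 CPM with RK1, against 277 and 278 CPM untreated (0.12 ± 0.04, adjusted p = 0.084). Pik3r4, the VPS15 regulatory subunit, stood at 51.3 and 53.5 CPM with RK1, against 44.1 and 47.7 CPM untreated (0.19 ± 0.06, adjusted p = 0.055). These 2 subunits and Atg14 did not overlap between groups but missed the threshold. With Uvrag, 4 of the 6 transcripts were higher in both RK1 libraries, as were 32.1% of all tested genes. The catalytic subunit Pik3c3 (0.05, interval -0.10 to 0.20) and Ambra1, which links Beclin 1 to the ULK1 complex (-0.02, interval -0.20 to 0.15), overlapped between groups.

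Among 7 transcripts of membrane supply, lipid transfer and PI3P binding, 1 was called. That is 14.3%, within the range of the 22.0% of all tested genes called and the 11.5% called higher. Atg2b, a lipid transfer protein of the growing membrane, had 94.1 and 94.7 CPM in RK1 libraries, against 82.3 and 82.6 CPM in untreated libraries (1.15-fold, log2 fold change 0.20 ± 0.04 SE, adjusted p = 0.019). Replicates lay close together and the groups were apart. The call was nonetheless lost on leaving out any library, with adjusted p = 0.0753 without untreated replicate 1, 0.0802 without untreated replicate 2, 0.0607 without RK1 replicate 1 and 0.0633 without RK1 replicate 2. Its paralog Atg2a had 64.1 and 63.0 CPM with RK1, against 59.7 and 65.2 CPM untreated (0.03, interval -0.11 to 0.16). The per-kilobase ratio of Atg2b to Atg2a was 0.963 and 0.987 in RK1 libraries and 0.906 and 0.830 in untreated libraries, higher in each RK1 library. Atg9a, the scramblase whose vesicles seed the membrane, was one of the 2 members lower in both RK1 libraries, with 114 and 118 CPM, against 127 and 122 CPM untreated (-0.11 ± 0.05, adjusted p = 0.15). Vmp1, an ER scramblase, stood at 120 and 116 CPM with RK1, against 106 and 110 CPM untreated (0.13 ± 0.05, adjusted p = 0.085). The PI3P-binding proteins Wipi1 (0.05, interval -0.08 to 0.17), Wipi2 (-0.01, interval -0.17 to 0.16) and Wdr45 (0.12, interval -0.03 to 0.27) were not called. Wipi1 overlaps Arsg on the opposite strand by 3585 bases, and Arsg had at most 22 counts in a library.

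None of the 9 measured conjugation transcripts was called, where 22.0% of all tested genes were. At an unadjusted p under 0.05, 2 of the 9, Atg4b and Atg7, were higher in edgeR and in limma-voom, and 0 in DESeq2. Atg7, the E1-like enzyme that activates both ubiquitin-like proteins, had 16.3 and 15.8 CPM with RK1, against 13.8 and 13.5 CPM untreated (log2 fold change 0.23 ± 0.09 SE, adjusted p = 0.11). Atg4b, the main protease that trims ATG8 proteins, had 51.5 and 50.9 CPM with RK1, against 45.4 and 46.3 CPM untreated (0.16 ± 0.05, adjusted p = 0.059). In both the RK1 libraries were above the untreated ones, as in 6 of the 9 conjugation transcripts and in 32.1% of all tested genes. Atg3, the E2-like enzyme of the ATG8 proteins, had 71.9 and 73.2 CPM with RK1, against 71.5 and 74.8 CPM untreated (-0.01, interval -0.13 to 0.10). Of the complex that acts as E3, Atg5 (-0.03, interval -0.17 to 0.11), Atg12 (0.12, interval -0.02 to 0.26) and Atg16l1 (0.03, interval -0.10 to 0.15) were not called. The remaining ATG4 proteases Atg4c (0.16, interval -0.07 to 0.40) and Atg4d (0.10, interval -0.10 to 0.29) were not called either. Atg10, the E2-like enzyme of Atg12, was the least abundant member per kilobase, with 49 and 42 counts in RK1 libraries and 38 and 38 counts in untreated libraries. Its interval (-0.18 to 0.87) was the widest but for Calcoco1, so a rise of the size seen for Sqstm1 was not detectable for it at this depth. Per kilobase, transcripts of the enzymes differed in level: the Atg3 to Atg7 ratio was 9.45 and 9.93 in RK1 libraries and 11.1 and 11.9 in untreated libraries.

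The ATG8 family had the highest share of called transcripts among the role groups with several members, 3 of 5, where 11.5% of all tested genes were called higher. All 5 transcripts were higher in both RK1 libraries, as were 32.1% of all tested genes. Gabarapl2 (GATE-16) had 114 and 107 CPM with RK1, against 82.0 and 80.2 CPM untreated, a 1.36-fold rise (log2 fold change 0.44 ± 0.05 SE, adjusted p = 0.0011). Map1lc3b, the LC3B protein used as the standard autophagosome marker, had 134 and 114 CPM with RK1, against 92.6 and 93.7 CPM untreated, a 1.33-fold rise (0.41 ± 0.08, adjusted p = 0.0084). Gabarap, which binds the ULK1 complex and takes part in autophagosome maturation, had 238 and 237 CPM with RK1, against 190 and 186 CPM untreated, a 1.26-fold rise (0.33 ± 0.04, adjusted p = 0.0018). The groups were apart for each of them, with the RK1 replicates of Map1lc3b the farthest from each other. Gabarapl1 had 58.6 and 52.9 CPM with RK1, against 48.9 and 47.9 CPM untreated, and just missed the threshold (0.21 ± 0.06, adjusted p = 0.052). It was called with robust dispersions (adjusted p = 0.0307), with library totals only (0.0424), with the stricter filter (0.0474) and without RK1 replicate 2 (0.28, adjusted p = 0.0225). Map1lc3a, the LC3A protein, had 47.8 and 44.3 CPM with RK1, against 41.7 and 40.0 CPM untreated (0.17 ± 0.06, adjusted p = 0.081).

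**Figure D2:**
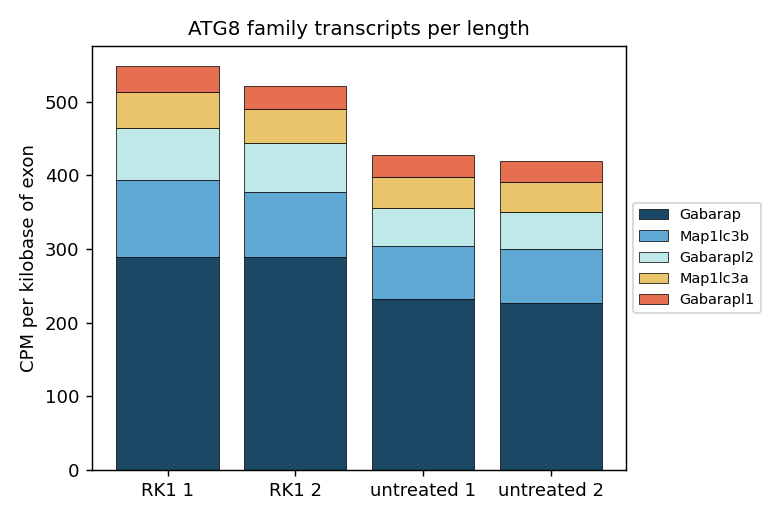
Level of the 5 ATG8 transcripts in CPM per kilobase of exon (y axis), stacked, 1 bar per library. Both RK1 bars, at 549 and 522, are taller than both untreated bars, at 427 and 420, and Gabarap makes up over 50% of each bar.

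Per kilobase of exon, the ATG8 transcripts together stood at 549 and 522 CPM per kilobase in RK1 libraries and at 427 and 420 CPM per kilobase in untreated libraries. Gabarap held 52.7% and 55.3% of that sum in RK1 libraries and 54.2% and 54.0% in untreated libraries, so its share overlapped between groups. Gabarapl2 held 13.0% and 12.9% of the sum with RK1, against 12.1% and 12.0% untreated. Map1lc3a held 8.99% and 8.77% with RK1, against 10.1% and 9.84% untreated. The shares of Gabarapl2, Map1lc3a and Gabarapl1 did not overlap between groups, while that of Map1lc3b did. Such separation is common with 2 libraries per group. By CPM, 32.1% of all tested genes lay above and 30.9% below in both RK1 libraries. The shares are also parts of 1 sum, so they depend on each other. The share of Map1lc3b was 19.0% and 17.0% with RK1 and 16.8% and 17.3% untreated, and that of Gabarapl1 was 6.34% and 6.02% with RK1 and 6.79% and 6.77% untreated. With 2 libraries in each group, no exact test of a share can reach the threshold, and none was run.

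Of the 5 cargo receptors, Sqstm1 and Optn were called (40%). Across all tested genes 22.0% were called, and 11.5% were called higher. Sqstm1 (p62), which gathers ubiquitinated cargo and is itself degraded by autophagy, had 584 and 601 CPM in RK1 libraries, against 421 and 403 CPM in untreated libraries. Both RK1 libraries were above both untreated ones by far more than replicates differed, a 1.44-fold rise (log2 fold change 0.52 ± 0.04 SE, adjusted p = 3.0e-04). Optn, a receptor in mitophagy and in autophagy of bacteria, had 121 and 110 CPM with RK1, against 97.6 and 96.6 CPM untreated (0.25 ± 0.06, adjusted p = 0.020). That call was lost without untreated replicate 2 (adjusted p = 0.0716) or RK1 replicate 1 (0.0826). Nbr1, the receptor most like Sqstm1 in domain order, had 501 and 494 CPM with RK1, against 476 and 474 CPM untreated, and was not called (0.07, interval -0.02 to 0.16). Tax1bp1, a receptor for aggregates and ferritin, had 251 and 255 CPM with RK1, against 258 and 262 CPM untreated (-0.04, interval -0.14 to 0.06). The upper bounds for Nbr1 and Tax1bp1 lie below the lower bound for Sqstm1, 0.42. Per kilobase, the Sqstm1 to Nbr1 ratio was 2.51 and 2.63 in RK1 libraries and 1.91 and 1.83 in untreated libraries. Of the receptors' summed per-kilobase level, Sqstm1 held 55.8% and 56.5% with RK1, against 48.1% and 47.3% in untreated cells. Sqstm1 and Mrnip, on opposite strands, share 47 bases at their ends, and Mrnip had at most 183 counts in a library, against at least 7328 for Sqstm1.

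**Figure D3:**
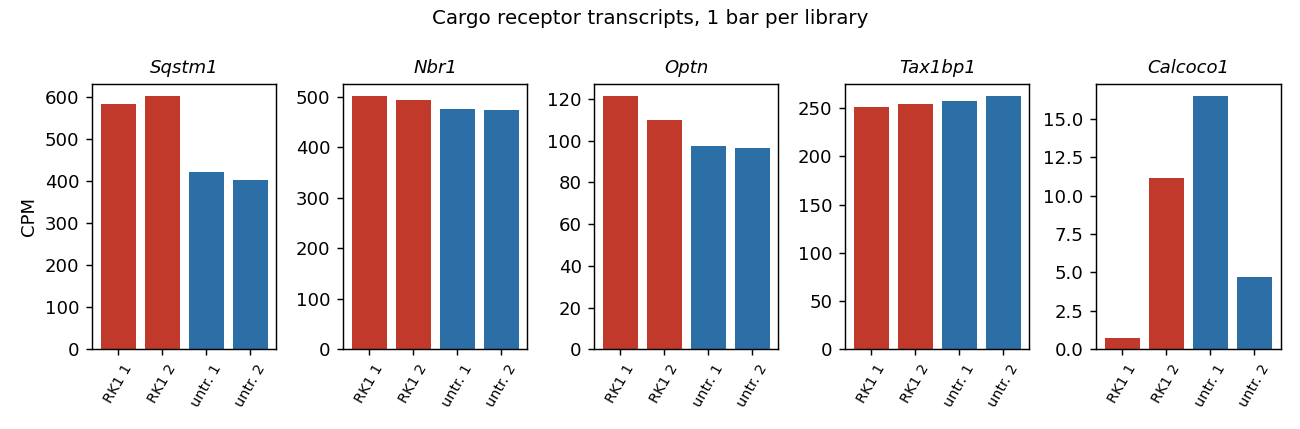
CPM of the 5 cargo receptor transcripts (y axis of each panel, starting at 0), 1 bar per library, with RK1 in red and untreated (untr.) in blue. Sqstm1, Optn and, by little, Nbr1 are higher in both RK1 libraries, and Tax1bp1 is slightly lower in both. Calcoco1 runs from 0.724 to 16.5 CPM with no order by group.

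Calcoco1, a receptor for autophagy of the ER and Golgi, stood apart by its spread. It had 13 and 203 counts in RK1 libraries and 334 and 86 counts in untreated libraries, so that its CPM differed 15.4-fold between the RK1 replicates and 3.48-fold between the untreated ones. The groups overlapped, and the fold change could not be told from 0 (-0.84 ± 0.90 SE, interval -2.96 to 1.27, adjusted p = 0.55). Without RK1 replicate 2 it would have been called lower (-3.86, adjusted p = 0.0185), so that call hangs on the library left out. Replicates of every other member differed by at most 1.18-fold with RK1 and 1.14-fold untreated. Among 9992 tested genes with a mean of at least 100 counts, 5 differed by at least 3-fold between the replicates of both groups, Calcoco1 included. No other gene of the table overlaps Calcoco1 at its position in Rnor_6.0 (chromosome 7, 145435584 to 145450301, minus strand). The median log2 fold change without it was still 0.13, and 10 of the other 37 transcripts rose.

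Epg5, which tethers autophagosomes to late endosomes and lysosomes, had 60.4 and 62.0 CPM in RK1 libraries, against 54.9 and 49.7 CPM in untreated libraries. The groups did not overlap (1.17-fold, log2 fold change 0.23 ± 0.06 SE, adjusted p = 0.034). The call was lost without untreated replicate 2 (0.15, adjusted p = 0.217), RK1 replicate 1 (0.24, adjusted p = 0.068) or RK1 replicate 2 (0.21, adjusted p = 0.108), and by DESeq2 (adjusted p = 0.152).

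**Figure D4:**
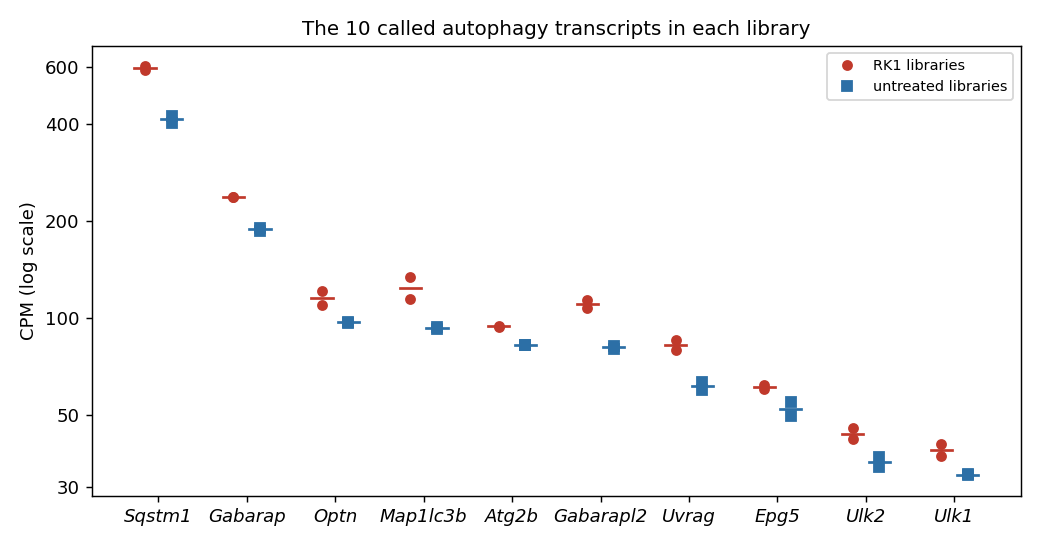
CPM (y axis, log scale) of the 10 called autophagy transcripts, with each RK1 library as a red circle, each untreated library as a blue square and the group mean as a short line; genes run by untreated mean. In each gene both circles lie above both squares, and Sqstm1, Map1lc3b, Gabarapl2 and Uvrag show the widest gaps between group means.

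Of the 10 risen transcripts, 5 were called in each of the 14 alternative analyses: Sqstm1, Gabarapl2, Uvrag, Map1lc3b and Gabarap. Over those analyses the log2 fold change ran between 0.48 and 0.56 for Sqstm1, 0.40 and 0.49 for Gabarapl2, 0.38 and 0.47 for Uvrag, 0.29 and 0.53 for Map1lc3b and 0.31 and 0.35 for Gabarap. Of the 28 transcripts not called, 19 had a positive log2 fold change, 6 had an adjusted p under 0.1, and 26 had a 95% interval within 0.5 of 0 on the log2 scale, the exceptions being Atg10 and Calcoco1. In Rnor_6.0, the build named in the file header, Sqstm1 (ENSRNOG00000003147) spans 35704730 to 35716294 of chromosome 10 on the minus strand, and Gabarap (ENSRNOG00000017417) spans 56601288 to 56604221 of the same chromosome on the plus strand. Map1lc3b (ENSRNOG00000017905) spans 53629779 to 53646058 and Gabarapl2 (ENSRNOG00000019425) 44164935 to 44175770 of the plus strand of chromosome 19. Uvrag (ENSRNOG00000016206) spans 163844818 to 164101578 of the minus strand of chromosome 1 and encloses an annotated gene of the opposite strand that had 0 counts in all libraries. Counts are summed over the exons of a gene, so a change cannot be assigned to an exon, an intron or a UTR.

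By level, the members covered a wide range. Per kilobase of exon the most abundant were Sqstm1, at 298 ± 6.2 with RK1 and 207 ± 6.5 untreated (CPM per kilobase, SD), and Gabarap, at 289 ± 0.32 with RK1 and 229 ± 3.5 untreated. Their order was thus Sqstm1 above Gabarap in RK1 libraries and Gabarap above Sqstm1 in untreated libraries, a reversal that was not tested. Becn1 (145 ± 5.0 with RK1, 133 ± 0.25 untreated) and Nbr1 (116 ± 1.2 with RK1, 111 ± 0.29 untreated) followed in both groups. At the low end stood Atg10 (1.58 ± 0.19 with RK1, 1.25 ± 0.10 untreated), Calcoco1, Atg14 (4.14 ± 0.19 with RK1, 3.67 ± 0.31 untreated) and Atg7 (5.30 ± 0.12 with RK1, 4.51 ± 0.063 untreated). Gabarap and Sqstm1 lay at percentiles 97.1 and 96.8 of all tested genes in untreated cells, and the kinases Ulk1 and Ulk2 at 31.2 and 29.9.

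Promoter sequences are shown for some members that carry one of the searched motifs, called and not called, so that sequence and call can be read side by side. A difference in response between them was not tested, and for TGACNNNGC only called members are shown. They run from 250 bases before to 50 bases after the gene start, come from RefSeq on build GRCr8 (a later build than that of the counts) and matched 35 of the 39 members. The motifs, searched on both strands, were CACGTG (the E-box), TCACGTGA (the core of the CLEAR element bound by TFEB, which contains the E-box), GTAAACA (bound by FOXO factors) and TGACNNNGC (the antioxidant response element bound by NRF2). Capitals mark every match.

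Map1lc3b, called higher, chr19:66574345-66574644, plus strand: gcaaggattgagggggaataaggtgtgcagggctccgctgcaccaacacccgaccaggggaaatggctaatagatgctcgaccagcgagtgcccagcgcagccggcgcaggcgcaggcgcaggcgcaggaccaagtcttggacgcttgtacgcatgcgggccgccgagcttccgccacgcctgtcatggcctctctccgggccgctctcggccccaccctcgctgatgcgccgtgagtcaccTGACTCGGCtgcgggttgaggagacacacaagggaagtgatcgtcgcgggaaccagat
Gabarap, called higher, chr10:55213215-55213514, plus strand: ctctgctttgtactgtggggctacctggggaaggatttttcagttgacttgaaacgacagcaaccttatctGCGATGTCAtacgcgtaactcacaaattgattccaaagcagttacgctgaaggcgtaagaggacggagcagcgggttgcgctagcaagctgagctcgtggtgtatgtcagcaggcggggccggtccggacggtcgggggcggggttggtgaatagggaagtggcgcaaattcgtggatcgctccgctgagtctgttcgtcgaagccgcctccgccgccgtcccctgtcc
Epg5, called higher, chr18:73678917-73679216, plus strand: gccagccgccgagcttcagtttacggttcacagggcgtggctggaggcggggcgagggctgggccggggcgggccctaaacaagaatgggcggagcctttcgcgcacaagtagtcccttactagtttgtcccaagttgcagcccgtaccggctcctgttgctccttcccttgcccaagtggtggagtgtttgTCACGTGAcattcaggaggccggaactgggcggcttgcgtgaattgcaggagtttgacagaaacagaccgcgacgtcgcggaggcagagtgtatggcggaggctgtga
Atg3, not called, chr11:69159231-69159530, minus strand: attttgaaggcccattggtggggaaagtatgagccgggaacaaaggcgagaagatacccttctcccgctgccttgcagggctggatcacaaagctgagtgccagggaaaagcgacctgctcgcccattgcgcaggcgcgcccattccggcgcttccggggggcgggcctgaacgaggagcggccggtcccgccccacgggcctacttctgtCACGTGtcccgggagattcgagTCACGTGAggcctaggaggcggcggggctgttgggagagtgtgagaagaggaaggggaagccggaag

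TGACNNNGC begins 8 bases before the gene start in Map1lc3b and, as its reverse complement, 179 bases before it in Gabarap. It was present in 7 of the 35 member promoters (20%), against 12.1% of all 33469 promoters and 14.7% of those of tested genes. Of the 7, Ulk2, Map1lc3b and Gabarap were called and Vmp1, Atg4b, Atg4d and Atg10 were not. TCACGTGA begins 58 bases before the start in Epg5 and 17 bases before it in Atg3, and it was found in 2 of 35 member promoters (5.71%), against 0.777% of all promoters and 1.70% of those of tested genes. Epg5 was called and Atg3 was level, so the motif was found on both sides of the threshold. CACGTG was present in 4 member promoters (11.4%, against 6.42% of all and 9.16% of tested), those of Epg5, Atg3, Atg5 and Atg14, and GTAAACA in 1, that of Wdr45 (2.86%, against 3.78% and 2.35%). Sqstm1, Gabarapl2 and Uvrag held none of the motifs in this window.

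Other genes of the pathway were counted in 5 lists, to be read against 11.5% of all tested genes called higher and 10.5% called lower. Of 13 tested receptors for mitophagy and ER-phagy, 6 rose (46.2%) and 1 fell (7.69%), with a median log2 fold change of 0.04. DESeq2 called 4 higher and 1 lower, and limma-voom called 6 higher and 1 lower. Bnip3, a hypoxia-inducible mitophagy receptor, had 233 and 243 CPM with RK1, against 76.6 and 71.1 CPM untreated (1.69 ± 0.05 SE, adjusted p = 1.6e-05). Its relative Bnip3l had 222 and 216 CPM with RK1, against 159 and 154 CPM untreated (0.48 ± 0.04, adjusted p = 4.5e-04). Rtn3, a receptor for tubular ER, had 622 and 648 CPM with RK1, against 508 and 498 CPM untreated (0.34 ± 0.04, adjusted p = 0.0017). The gene that fell was Cdk5rap3 (C53), a receptor of ribosome-stalled ER, with 104 and 101 CPM with RK1, against 135 and 131 CPM untreated (-0.38 ± 0.05, adjusted p = 0.0015). Replicates of these 4 genes lay close together and the groups were apart. Beside a rise of 3.22-fold for Bnip3, the largest rise in the core machinery was 1.44-fold.

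Of 14 transcripts of autophagosome fusion with lysosomes, 4 rose (28.6%, against 11.5% of all tested genes) and 0 fell (median 0.13). DESeq2 called 2 of them higher and limma-voom 3. By both tools 0 fell, as at an unadjusted p under 0.05 in edgeR. Rab7a, the late endosomal GTPase, had 271 and 260 CPM with RK1, against 211 and 213 CPM untreated (0.32 ± 0.04, adjusted p = 0.0025). Vps41, a HOPS tether subunit, had 87.3 and 89.2 CPM with RK1, against 71.4 and 69.8 CPM untreated (0.32 ± 0.05, adjusted p = 0.0031). Plekhm1, an adaptor of Rab7 and ATG8 proteins, rose by 0.22 ± 0.05 (adjusted p = 0.022), and Tecpr1, a tether, lay just under the threshold (0.26 ± 0.08, adjusted p = 0.050). Without 1 library at a time, 2 to 5 of the list rose: Tecpr1 was lost without untreated replicate 1 (adjusted p = 0.199), untreated replicate 2 (0.0777) or RK1 replicate 1 (0.224), and Plekhm1 without untreated replicate 2 (0.133) or RK1 replicate 1 (0.086). Of 12 other core transcripts, 3 rose (25%, against 11.5% of all tested genes) and 0 fell (median 0.12). In either direction 22.0% of all tested genes were called, near this 25% and not far from the 28.6% of the fusion list. DESeq2 called 2 of the 12 higher and limma-voom 3. By both tools 0 fell, as at an unadjusted p under 0.05 in edgeR. The risen genes were Tmem41b, an ER scramblase that works with Vmp1 (0.38 ± 0.05, adjusted p = 0.0021), Tollip, a ubiquitin-binding receptor (0.34 ± 0.05, adjusted p = 0.0030), and Zfyve1 (DFCP1), a marker of the omegasome (0.31 ± 0.06, adjusted p = 0.0094), which was lost without untreated replicate 1 (adjusted p = 0.0554) or untreated replicate 2 (0.0515). Ncoa4, the ferritin receptor, is named although the rule did not choose it, with its values known. It averaged 145 CPM with RK1 and 137 CPM in untreated cells and was not called (adjusted p = 0.29).

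Of 16 tested genes of AMPK and mTORC1 control, 2 rose and 1 fell (median 0.05). The 18.8% called is near the 22.0% of all tested genes. DESeq2 called 1 higher and 1 lower, and limma-voom called 2 higher and 1 lower. Ddit4 (REDD1), a stress-induced inhibitor of mTORC1, had 158 and 193 CPM with RK1, against 69.5 and 88.9 CPM untreated (1.15 ± 0.13, adjusted p = 0.0010, and 0.0737 with robust dispersions). Deptor, an inhibitor within mTOR complexes, fell to 33.3 and 31.5 CPM with RK1, against 50.1 and 50.2 CPM untreated (-0.63 ± 0.06, adjusted p = 4.1e-04). Mtor, the kinase that restrains ULK1, rose by 0.20 ± 0.04 (adjusted p = 0.018) but lost its call whichever library was left out (adjusted p = 0.0584 and 0.0948 without untreated replicates 1 and 2, 0.057 and 0.0617 without RK1 replicates 1 and 2), while Prkab1, an AMPK subunit, was not called (-0.15 ± 0.05, adjusted p = 0.086). Inhibitors of mTORC1 thus changed in both directions. Of 13 transcription factors of autophagy genes, 2 rose (15.4%, against 11.5% of all tested genes) and 0 fell (median -0.03). At an unadjusted p under 0.05, 1 was lower in edgeR and in limma-voom, and 0 in DESeq2. After adjustment DESeq2 called 1 higher and limma-voom 2. Bhlhe40, a repressor that competes for E-boxes, had 100 and 92.8 CPM with RK1, against 29.6 and 28.6 CPM untreated (1.73 ± 0.06, adjusted p = 1.6e-05). Foxo3, an activator of autophagy genes, had 54.9 and 52.6 CPM with RK1, against 46.2 and 42.4 CPM untreated (0.28 ± 0.06, adjusted p = 0.016), and was not called without untreated replicate 2 (0.129) or RK1 replicate 1 (0.0595). Tfe3, a factor of the TFEB family (0.15 ± 0.05, adjusted p = 0.075), and Atf4, the factor of the integrated stress response (-0.37 ± 0.14, adjusted p = 0.11), were not called. Atf4 was called lower without untreated replicate 1 (-0.50) or RK1 replicate 2 (-0.61). Without RK1 replicate 2, Ddit3, a factor of ER stress named after its values were seen, was also called lower (-0.38). Both genes were higher in replicate 2 than in replicate 1 of each group. In replicates 1 and 2, Ddit3 had 92.3 and 132 CPM with RK1, and 110 and 131 CPM untreated. Leaving out 1 library therefore compared unlike replicate numbers for these genes. With all libraries the log2 fold change of Ddit3 was -0.10.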

How the data were processed

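The deposited file is 1 table of unnormalised counts, with a row for each Ensembl gene and with exon lengths, symbols and Rnor_6.0 positions, per the file headers. HISAT2 and HTSeq are named in the submitters' processing notes, with versions, strand setting and read filters not stated. Without a known strand setting, overlapping genes may share reads. RNA was extracted with Trizol, per the labels' protocols.

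Counts were filtered with filterByExpr (minimum count 10, minimum total 15), scaled by TMM and tested with edgeR 4.0.16 (R 4.3.3) by its two-sided quasi-likelihood test, which left 2 residual degrees of freedom after the group term. The SE was the log2 fold change divided by the root of F, and 95% intervals use the test's total degrees of freedom. CPM use scaled library totals, and CPM per kilobase divide by the deposited exon length. Alternatives used DESeq2 1.42.0, limma 3.58.1, other scalings, filters and thresholds, a replicate block and leaving out each library. Those of the further lists were added after seeing the data.

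Named were all members and up to 4 genes of each further list with the smallest adjusted p. Members and lists were chosen with earlier results of these data known. Replicate counts varied more than sampling alone gives (chi-square over degrees of freedom was 4.67 with RK1 and 4.57 untreated). On data simulated for this comparison with 12316 genes, 32% of genes changed by 1.2-fold, 80% at 1.5-fold and 100% at 2-fold were recovered. Of 168 calls, 12 were unchanged genes. The simulation changed 50 genes at each size, all of them well counted. That is far fewer than the 2711 genes called in the data, so the recovered shares need not hold for these data.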

Additional observations from a re-analysis of the deposited data

How the results depend on the processing

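Across all genes, DESeq2 called 859 higher and 853 lower and an adjusted p under 0.01 left 665 and 561. The member counts moved to 6 by DESeq2 and 5 at 0.01, with 0 fallen in both. By role group, DESeq2 called 0 initiation, 0 membrane supply and 0 tether transcripts, and the 0.01 threshold left 0, 0 and 0 of these and 1 cargo receptor. Nucleation calls numbered 2 with robust dispersions, 2 with the stricter filter and 2 with the replicate block. Upper-quartile scaling gave 0 tether calls and a member median of 0.10. The labels give replicate numbers and state no pairing. Deviations of the replicate 1 libraries correlated at 0.059 across all genes. Some genes still ran with the number, while Calcoco1 did not. In replicates 1 and 2, Atf4 had 484 and 664 CPM with RK1, and 668 and 811 CPM untreated. Myc had 20.4 and 30.5 CPM with RK1, and 24.2 and 38.9 CPM untreated. Whether libraries of the same number belong together was not tested. With the replicate block 1 conjugation and 5 ATG8 transcripts were called, the member count was 14, and 2 transcription factors were called lower, Atf4 (-0.38, adjusted p = 0.00262) and Myc (-0.31, adjusted p = 0.0124).

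Leaving out 1 library at a time gave 824 to 1110 genes higher and 859 to 936 lower. Members called higher numbered 6 to 8 and lower 0 to 1 (Calcoco1), with a member median of 0.11 to 0.16. Calls numbered 0 to 1 for initiation, 0 to 0 for membrane supply, 1 to 2 higher and 0 to 1 lower for cargo receptors, and 0 to 1 for the tether. A group left with 1 library borrows its spread from the other. In the 14 alternatives, single members kept direction and call in 478 cases, lost the call in 24, gained it in 11 and changed sign without a call on either side in 18, and 0 called members reversed. The cause of these moves was not tested. In the simulation 32% of 1.2-fold changes were found. Far fewer genes were changed there than the 2711 called here, so that share need not hold for these data. Members that were not called may still have changed by such sizes.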
